A study of Mus musculus with 8 samples.

Results

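The genes described here are the replication-dependent histone genes: every gene row named Hist1h, Hist2h, Hist3h or Hist4h, without names containing -ps. There were 69 such genes among 37747 gene rows, namely 6 for linker histone H1, 20 for H2a, 18 for H2b, 12 for H3 and 13 for H4. RefSeq (GRCm38.p6) places 55 of them on chromosome 13, 10 on chromosome 3, 2 on chromosome 11 and 1 on chromosome 6. Hist1h2ap matched several RefSeq genes and was not placed. RefSeq calls Hist1h2aj and Hist1h2al pseudogenes.

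RNA was measured by 4sUDRB-seq in male mouse embryonic stem cells of 129 background with conditional Ythdc1 alleles, grown without feeders in serum and LIF. YTHDC1 is a nuclear reader of N6-methyladenosine (m6A) in RNA, and 4-hydroxytamoxifen (4OHT) switches on the recombinase of inducible knockout cells. Cells received 4OHT at 1 µg/ml or its solvent DMSO during 4 days. All groups then received DRB, which holds RNA polymerase II near promoters, at 100 µM during 3 h, were washed, and were given 1 mM 4-thiouridine (4sU) during 0 or 8 min before labelled RNA was purified. The 4 groups were DMSO 0 min, 4OHT 0 min, DMSO 8 min and 4OHT 8 min, with 2 libraries each. The 0 min groups had no labelling time and give the background of the purification. The labels do not state which part of Ythdc1 is deleted or what drives the recombinase. Sample titles name a different cell number for each labelling time, but the column names of the table use the numbers 1 and 2 at either time, so the cell line may have changed with time. No label ties the libraries to separate cultures, and the p-values therefore rest on a spread between libraries that could be technical.

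Replication-dependent histone genes supply the core and linker histones that package newly copied DNA, and they are transcribed mostly in S phase. They are short and lie in clusters with many near-identical copies. Their RNAs usually lack introns and a poly(A) tail and end in a stem-loop that is bound by SLBP. NPAT, a target of cyclin E and CDK2, gathers at the clusters and drives their transcription. In bulk RNA, fewer cells in S phase and less histone RNA per cell cannot be told apart.

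The members' RefSeq spans had a median of 492.5 bases, and 61 of the 68 placed genes spanned at most 1 kb. The exceptions were Hist1h2be (37.5 kb), Hist1h2bp (14.1 kb), Hist1h2bc (8.28 kb), Hist1h2bq and Hist1h2br (3.79 kb each), Hist1h2al (2.98 kb) and Hist2h2be (2.67 kb), so 6 of these 7 encode H2b.

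The upstream sequences of 3 genes are shown because the results turn on them: Hist1h2ac had the largest fall with 4OHT at 8 min, Hist1h1d had the highest level per kb at 8 min with DMSO among members of at most 1 kb, and Hist1h2be was the sole member to rise. Each is the 250 bases before a RefSeq start in GRCm38.p6, written 5′ to 3′ along the gene. Capitals mark the octamer ATTTGCAT, CCAAT or TATAAA, on either strand. Hist1h2ac is at chr13:23683960-23684209 (minus strand), Hist1h1d at chr13:23554782-23555031 (plus strand), and Hist1h2be has an upstream start at chr13:23621095-23621344 and an inner start at chr13:23585971-23586220 (both minus strand).
Hist1h2ac: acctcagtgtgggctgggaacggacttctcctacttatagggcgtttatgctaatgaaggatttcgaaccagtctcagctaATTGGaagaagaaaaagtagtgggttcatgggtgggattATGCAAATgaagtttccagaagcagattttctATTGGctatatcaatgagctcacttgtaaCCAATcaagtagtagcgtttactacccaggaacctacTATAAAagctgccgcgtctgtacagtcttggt
Hist1h1d: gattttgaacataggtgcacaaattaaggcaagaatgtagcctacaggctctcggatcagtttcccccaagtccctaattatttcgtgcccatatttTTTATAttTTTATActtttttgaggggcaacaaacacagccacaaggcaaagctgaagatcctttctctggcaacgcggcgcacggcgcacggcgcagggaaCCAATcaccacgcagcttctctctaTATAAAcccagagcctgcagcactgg
Hist1h2be, upstream start: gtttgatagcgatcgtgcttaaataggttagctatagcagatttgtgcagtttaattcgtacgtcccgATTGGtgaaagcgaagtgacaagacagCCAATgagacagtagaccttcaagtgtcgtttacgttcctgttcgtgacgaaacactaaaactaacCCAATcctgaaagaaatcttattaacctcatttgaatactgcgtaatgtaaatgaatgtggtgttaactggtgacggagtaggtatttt
Hist1h2be, inner start: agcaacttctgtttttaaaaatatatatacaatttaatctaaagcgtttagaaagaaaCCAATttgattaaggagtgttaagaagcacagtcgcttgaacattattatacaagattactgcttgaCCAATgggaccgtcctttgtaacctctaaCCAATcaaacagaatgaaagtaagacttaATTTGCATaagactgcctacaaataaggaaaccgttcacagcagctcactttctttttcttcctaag
The window of Hist1h2ac holds all these motifs, that of Hist1h1d holds CCAAT and TATAAA, and of the Hist1h2be windows the inner one holds the octamer.

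The octamer, the site of POU factors such as OCT1, was found upstream of H2a and H2b genes and of no other class. It was in 7 of 17 H2a genes and 7 of 16 H2b genes with a window, in 0 of 6 H1, 0 of 10 H3 and 0 of 12 H4 genes, and in 1.60% of all 32851 promoter windows. CCAAT, the letters bound by NF-Y, was in all 6 H1, 17 H2a and 16 H2b genes, in 8 of 10 H3 and 3 of 12 H4 genes, and in 33.8% of all windows. TATAAA was in 29 of 61 members with a window (47.5%) against 12.4% of all windows. TTTCGCGC, an E2F-like string, was in 7 of 61 members, all of them H2a or H2b genes, against 0.256% of all windows. GGGCGG, bound by SP1, was in 20 of 61 members (32.8%) against 32.7% of all windows, and in 9 of 12 H4 but 0 of 16 H2b genes. All strings were searched on both strands, and a match describes letters and not binding. Windows of H2a and H2b genes that lie head to head overlap, so the same match can be counted for both genes.

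Library depth differed with labelling time. Reads recovered from the deposited signal numbered 46.3 to 61.4 M (M, mega) at 0 min and 93.1 to 134 M at 8 min. The histone genes took 0.452% and 0.453% of reads in the DMSO 8 min libraries and 0.279% and 0.306% in the 4OHT 8 min libraries. At 0 min the share was 0.542% and 0.324% in the DMSO libraries, and 0.542% and 0.254% in the 4OHT libraries. The 8 min groups did not overlap, whereas at 0 min the libraries that carry number 2 were low in both treatments. Counted reads can come from the same molecule, and counting error is therefore a lower limit of the error. How reads of near-identical copies were shared out and whether strand was read is not given in the sources used here, so the values of single copies are uncertain.

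Ythdc1, the targeted gene, was read in every library. Its deposited signal at 0 min was 133 and 185 in the DMSO libraries, and 129 and 412 in those of 4OHT. At 8 min it was 1409 and 2708 against 2696 and 5168. After median-ratio scaling of the 8 min libraries it was 2941 and 3593 with DMSO and 2028 and 2460 with 4OHT, a log2 fold change of −0.54 (limma adjusted p = 0.00237). Reads over the whole gene do not isolate the deleted part. The summed scaled level of 10 embryonic stem cell markers was 7210 to 7850 with DMSO and 6449 to 6462 with 4OHT at 8 min, and 4 of the 10 were lower and 1 higher. Sums of other marker lists also differed between the treatments at 8 min. The sums of 10 fibroblast genes were 1492 to 1515 and 1003 to 1017, with 1 of the 10, Postn, below 1. Of 4 tested, 4 fell, and Fn1 alone went from 1337 and 1330 to 924 and 898. The sums of 8 trophoblast genes were 165 to 169 and 108 to 131, and of 6 tested 3 fell and Krt7 rose. The sums of 8 primitive endoderm genes were 211 to 239 and 453 to 519, with Sox7 below 1. Of 6 tested, 3 rose and 0 fell. Lamb1 alone went from 106 and 98.4 to 340 and 281, and Gata6 was lower without a call (−0.37). The sums of 2-cell-like genes (9 of 10 in the table) were 28.3 to 33.0 and 305 to 321, and 6 of 6 tested rose. Of all genes, 17.1% fell and 18.8% rose. The part of these markers in the histone results was not tested.

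At 8 min, the histone genes as a group lay below other genes with 4OHT. The median of all genes rose by 1.43 on the log2 scale of the deposited signal, whereas the median histone gene rose by 0.71, and 68 of 69 members lay below the median of all genes. On that scale limma called 1 of 69 higher (58.7% of all genes were) and 0 lower (0.131% of all genes were). At an unadjusted p under 0.05, 3 were higher and 0 lower. On recovered reads of all 8 libraries, edgeR and DESeq2 apply their own scaling and so do not test the deposited scale. There edgeR called 0 higher and 0 lower (0.00969% and 0.121% of all genes). DESeq2 called 0 higher and 4 lower (1.29% and 2.63% of all genes). The fold changes that follow were taken after median-ratio scaling of the 4 libraries of 8 min, where the median gene moved by −0.0014. They describe levels relative to other genes. An earlier analysis of these data chose this fit after seeing them.

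With that scaling, 62 of 69 histone genes fell and 1 rose, while 17.1% of 19995 genes fell and 18.8% rose. The median log2 fold change over the 69 was −0.75. Both 4OHT libraries lay below both DMSO libraries in 68 of 69 members, against 33.8% of all genes. The same 62 genes were called lower by edgeR (16.8% of all genes; 18.4% higher) and by DESeq2 (16.9%; 18.3% higher) on the recovered reads. The median was as large when all 8 libraries were scaled jointly (−0.82; Hist1h2ac −1.90), but all these calls were lost when the spread was estimated over all 8 libraries after joint scaling: 0 members then passed (0.136% of all genes were lower and 0.00969% higher), 34 were lower and 0 higher at an unadjusted p under 0.05, and the smallest adjusted p was 0.167. Leaving out 1 library of 8 min gave 51 calls of lower genes without 4OHT number 1 and 60 to 61 otherwise, and 50 genes were called in all of these fits. Other protein-coding genes with spans of at most 1 kb had a median of −0.06, and 9 of 67 rose and 9 fell.

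**Figure D1:**
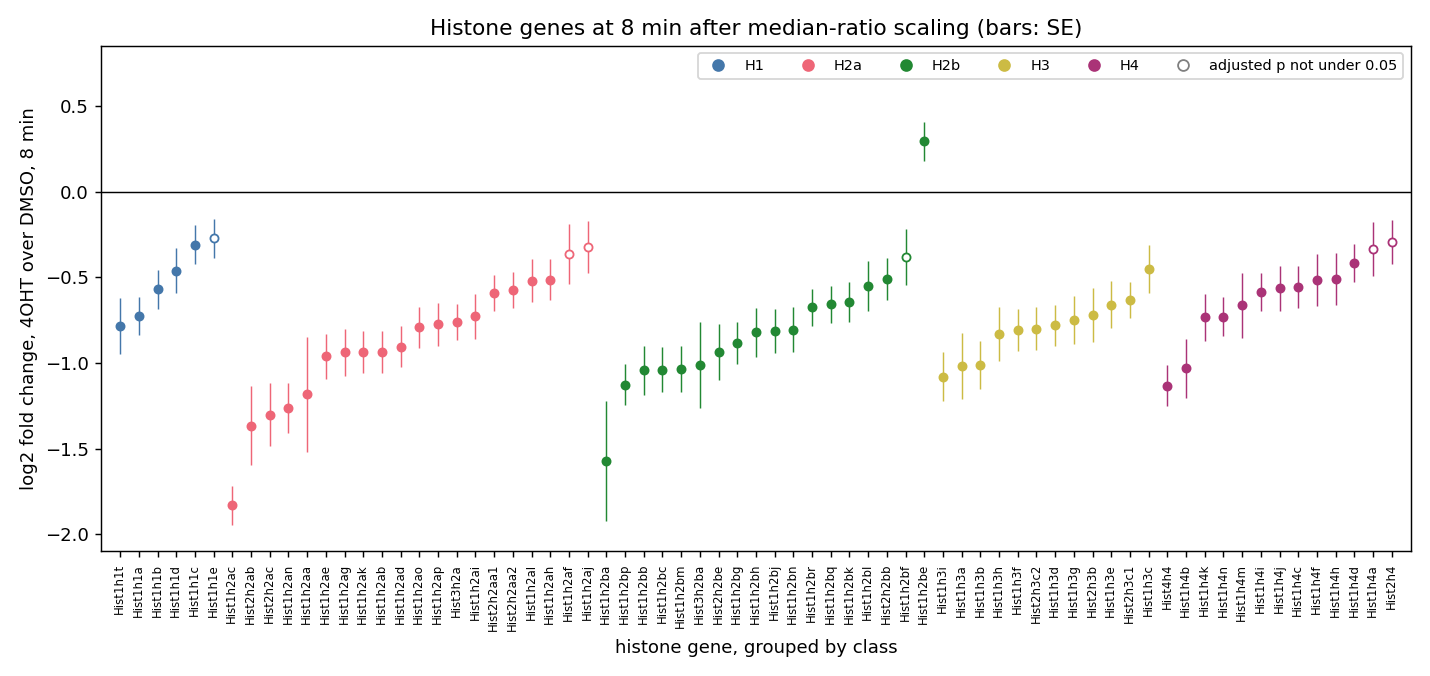
Log2 fold change of each of the 69 histone genes, 4OHT over DMSO at 8 min, after median-ratio scaling, with bars of 1 SE and open circles for adjusted p not under 0.05. Genes are on the x axis, coloured by class; 68 of 69 lie below 0, from Hist1h2ac at −1.83 to Hist1h1e at −0.27, and Hist1h2be lies above at 0.29.

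The fall was seen in every class and in every genomic cluster. It is a change relative to other genes. After joint scaling only 7 of 69 members were called higher at 8 than at 0 min with DMSO (31.1% of all genes). How much of each 8 min value is background of the purification was not tested. In H1, 5 of 6 genes fell, with a class median of −0.52. In H2a 18 of 20 fell (median −0.85), in H2b 16 of 18 (median −0.82), in H3 12 of 12 (median −0.79) and in H4 11 of 13 (median −0.56). The differences between class medians were not tested, and the ranges overlapped, from −0.78 to −0.27 in H1 and from −1.83 to −0.32 in H2a. By place, 17 of 18 genes at 21.7 to 21.8 Mb of chromosome 13, 5 of 5 near 22.04 Mb, 26 of 31 at 23.5 to 23.9 Mb and 9 of 10 on chromosome 3 fell. Both genes of chromosome 11 and Hist4h4 on chromosome 6, which lie outside the large clusters, fell too, as did Hist1h2al at 51.2 Mb of chromosome 13 and the unplaced Hist1h2ap.

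Among linker histones, Hist1h1d (chr13:23555032-23555807) gave the largest read share. Its scaled value was 4929 and 5261 in the DMSO libraries and 3511 and 3895 in those of 4OHT. The groups did not overlap, and the log2 fold change was −0.46 ± 0.13 (SE; adjusted p = 0.00798). The call was lost without 4OHT number 1 (adjusted p = 0.267), without 4OHT number 2 (0.0651) or with no filter (0.0619). Hist1h1c was at 1548 and 1331 with DMSO and 1089 and 1230 with 4OHT (−0.31 ± 0.11; adjusted p = 0.0376), again without overlap but with a gap smaller than the distance between replicates. Its call was lost without 4OHT number 1 (0.425), 4OHT number 2 (0.0649) or DMSO number 1 (0.203), or with no filter (0.154). Hist1h1a had nearly equal DMSO values of 501 and 502, and 4OHT values of 285 and 322 (−0.73 ± 0.11; adjusted p = 2.37e-05). Hist1h1t, the linker histone of the testis, was low at 116 and 104 with DMSO and lower still at 58.6 and 68.5 with 4OHT (−0.78 ± 0.16). Hist1h1e, at 362 and 323 against 280 and 285, did not pass (adjusted p = 0.0666).

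Among H2a genes, Hist1h2ac (chr13:23683473-23683959) had the largest fall of all 69. Its scaled value was 1412 and 1599 with DMSO and 383 and 464 with 4OHT. Both 4OHT values lay far below both DMSO values, a 3.56-fold fall (log2 fold change −1.83 ± 0.12 SE; adjusted p = 6.34e-11). On the deposited scale, where most genes rose, it went from 676 and 1206 to 509 and 974, with overlap (−0.36; adjusted p = 0.572). Hist2h2aa1 and Hist2h2aa2, duplicate genes of chromosome 3 whose reads may not be separable, were at 915 and 905 and at 920 and 919 with DMSO. With 4OHT they were at 586 and 621 and at 598 and 638, falls of 0.59 and 0.57 on the log2 scale. The much weaker Hist2h2ab went from 51.1 and 51.3 to 16.8 and 21.9 (−1.37 ± 0.23; adjusted p = 6.41e-05). Hist1h2aj, a pseudogene in RefSeq (121 and 108 against 86.2 and 95.9), and Hist1h2af (82.3 and 72.6 against 56.4 and 63.4) did not pass, with adjusted p of 0.0979 and 0.102.

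The H2b genes held both the largest read share and the exception. Hist1h2bc (chr13:23684199-23692480) was at 4874 and 5949 in the DMSO libraries and at 2511 and 2733 in those of 4OHT. The groups lay apart, a 2.06-fold fall (−1.04 ± 0.13; adjusted p = 1.82e-06). Hist1h2be (chr13:23583670-23621124) was instead at 1673 and 1811 with DMSO and 2039 and 2230 with 4OHT. Both 4OHT values were above both DMSO values, by a small margin (0.29 ± 0.11; adjusted p = 0.0487). That call was lost with no filter (adjusted p = 0.0875), a minimum of 100 (0.0559), upper-quartile scaling (0.0925), or without 4OHT number 1 (0.0744), 4OHT number 2 (0.236) or DMSO number 1 (0.141). On the deposited scale Hist1h2be was the 1 member called, from 802 and 1365 to 2710 and 4684 (1.77; adjusted p = 0.0171). Its span overlaps the RefSeq gene Gm33387, and reads of both cannot be told apart if strand was not read.

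The ratio of these H2b genes within a library does not depend on scaling. Hist1h2be over Hist1h2bc was 0.343 and 0.304 in the DMSO 8 min libraries and 0.812 and 0.816 in the 4OHT 8 min libraries. At 0 min it was 0.800 and 0.801 in the DMSO libraries and 0.758 and 0.785 in those of 4OHT. The DMSO 8 min libraries thus stood apart from the other 6, which lay between 0.758 and 0.816. Hist1h2ac over Hist1h2bc also differed at 8 min, at 0.290 and 0.269 with DMSO and 0.153 and 0.170 with 4OHT. These ratios were picked after their values were seen and carry no test.

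**Figure D2:**
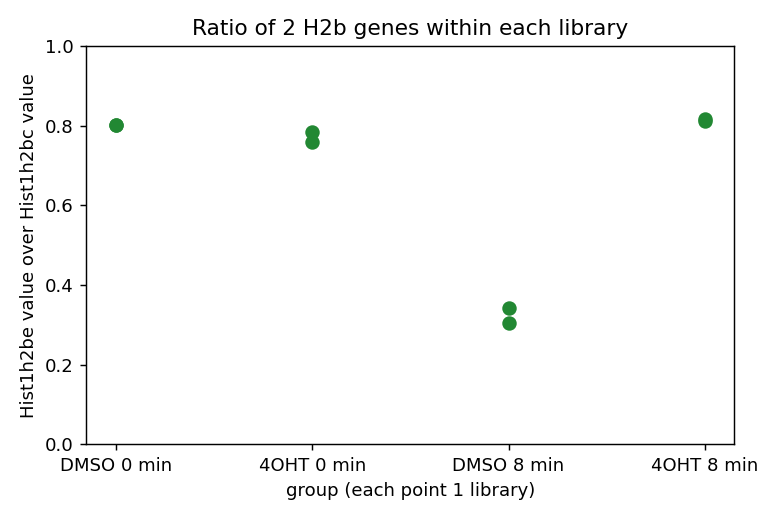
Hist1h2be value over Hist1h2bc value within each library (y axis, no unit), by group on the x axis, with 1 point per library. The DMSO 8 min libraries lie at 0.304 and 0.343, and the other 6 lie from 0.758 to 0.816.

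Of the other H2b genes, Hist1h2bp went from 459 and 568 with DMSO to 232 and 235 with 4OHT (−1.13 ± 0.12; adjusted p = 1.25e-07). Hist1h2bf, at 94.9 and 86.1 against 63.6 and 75.0, did not pass (adjusted p = 0.0729). The testis genes Hist1h2ba and Hist1h2aa, an H2b and H2a pair, held the smallest shares of histone reads at 8 min in both treatments. Hist1h2ba was at 23.8 and 16.8 with DMSO and 4.26 and 8.47 with 4OHT (−1.57 ± 0.35; adjusted p = 0.00116). Hist1h2aa was at 29.1 and 14.2 with DMSO and 8.66 and 8.17 with 4OHT (−1.18 ± 0.34; adjusted p = 0.00799), and its call was lost without DMSO number 1 (0.148). Both overlap the RefSeq gene Gm33516.

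All 12 H3 genes fell relative to other genes. After joint scaling, 0 of the 12 were higher at 8 than at 0 min with DMSO and 7 were lower (31.1% and 26.1% of all genes). On the deposited scale 2 of the 12 were higher and 0 lower (47% and 1.95% of all genes). Hist2h3c1, next to Hist2h2aa1 on chromosome 3, went from 771 and 797 to 519 and 492 (−0.63 ± 0.11; adjusted p = 6.55e-05). Hist1h3d went from 517 and 586 to 287 and 356 (−0.78 ± 0.12). The largest H3 falls were in Hist1h3i, from 226 and 191 to 89.7 and 107 (−1.08 ± 0.14), and Hist1h3a, from 75.1 and 90.9 to 34.5 and 47.1 (−1.02 ± 0.19). The smallest was in Hist1h3c, from 201 and 227 to 136 and 178 (−0.45 ± 0.14; adjusted p = 0.0132), whose call was lost without 4OHT number 1 (0.342) or DMSO number 2 (0.0604). The groups did not overlap in any of these 5.

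Of the H4 genes, Hist4h4 (chr6:136803993-136804431) had the largest fall. It was at 1404 and 1282 with DMSO and 535 and 698 with 4OHT, with no overlap (−1.13 ± 0.12; adjusted p = 1.34e-07). Hist1h4b fell from 90.5 and 102 to 43.9 and 49.1 (−1.03 ± 0.17). Hist1h4d, from 599 and 628 to 428 and 490, fell less (−0.42 ± 0.11; adjusted p = 0.00487), and its call was lost without 4OHT number 1 (0.143). Hist2h4 (191 and 208 against 155 and 170) and Hist1h4a (106 and 128 against 82.1 and 103) did not pass, with adjusted p of 0.0767 and 0.102. The class thus spanned 2.19-fold falls and differences too small to call.

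**Figure D3:**
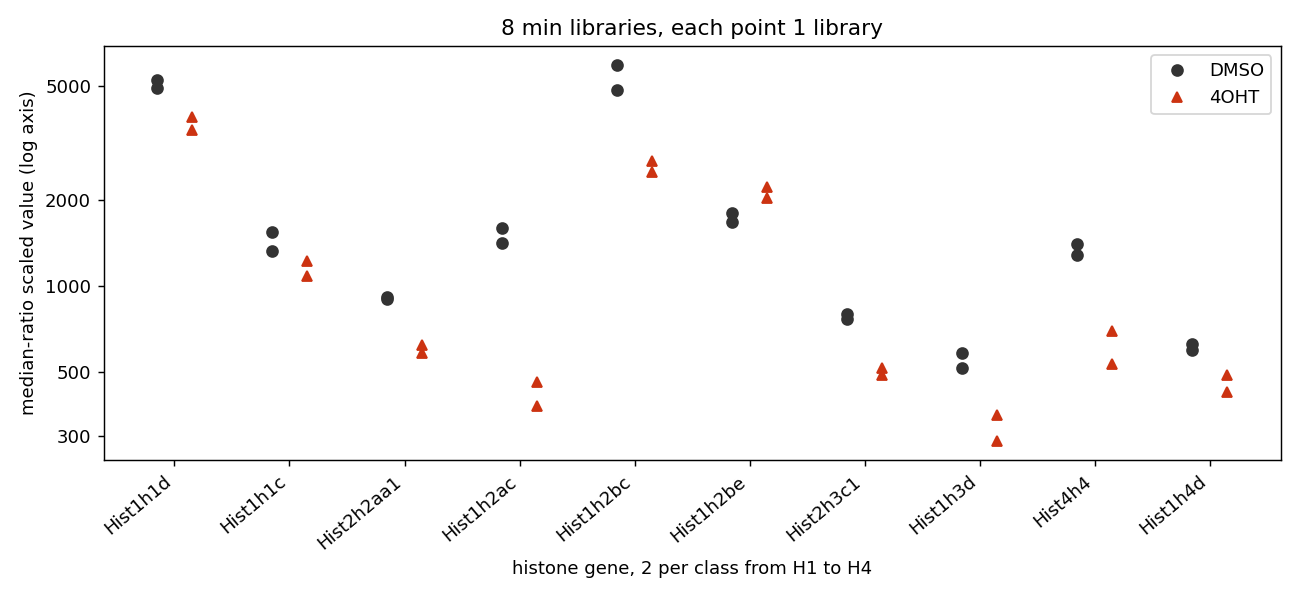
Median-ratio scaled values (y axis, log scale) of 10 histone genes in the 4 libraries of 8 min, with circles for DMSO and triangles for 4OHT. In 9 of the 10 both triangles lie below both circles, most in Hist1h2ac (1412 and 1599 against 383 and 464), and in Hist1h2be both lie above.

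Some H2a and H2b genes lie head to head, with both transcribed outward from a shared stretch of DNA. Among the 61 members with a promoter window, RefSeq starts placed 9 pairs in this way, all of 1 H2a and 1 H2b gene, with 164 to 281 bases between the starts. Both genes fell in 8 of the 9. The gap between the log2 fold changes of these 9 pairs had a median of 0.13 and reached 0.52, in the pair of Hist1h2bf (−0.38, not called) and Hist1h2ad (−0.90). The gaps of other pairs were not compared. Hist1h2bc has no window and its strand was not read, so it is in no pair here, although its span lies 240 bases from that of Hist1h2ac. Those neighbours fell by unlike amounts (−1.83 for Hist1h2ac and −1.04 for Hist1h2bc), a gap of 0.79. Hist1h2an (−1.26) and Hist1h2bp (−1.13) formed another of the 9 pairs. Both windows held the octamer in 3 pairs, but the windows of a pair overlap and may hold the same match. H2a genes with the octamer had a median of −0.96 (7 genes) and those without −0.85 (10 genes), and H2b genes −0.88 (7 genes) and −0.81 (9 genes), which is a description with no test.

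The make-up of histone reads by class differed between treatments at 8 min. H1 genes held 21.9% and 21.1% of all histone reads with DMSO and 24.9% and 25.2% with 4OHT. H2a genes held 21.5% and 20.7% with DMSO and 18.3% and 17.9% with 4OHT. In both classes the groups did not overlap. H2b genes held 35.0% and 37.1% against 36.6% and 35.9%, with overlap, and H4 genes 12.6% and 11.96% against 11.6% and 12.3%, also with overlap. H3 genes held 8.97% and 9.20% against 8.53% and 8.69%, with no overlap. No test was run on these shares. A few genes weighed heavily in these sums: Hist1h2bc held 14.7% and Hist1h1d 13.9% of DMSO 8 min histone reads. Hist1h2ac alone went from 4.10% with DMSO to 1.84% with 4OHT, most of the H2a difference. Within the overlapping H2b share, Hist1h2be went from 4.75% to 9.27% and Hist1h2bc from 14.7% to 11.4%.

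At 0 min, without labelling time, 0 of 69 histone genes were called higher or lower with 4OHT on the deposited scale (0% of all genes in both directions). At an unadjusted p under 0.05 limma had 0 members, and edgeR (0% of all genes) and DESeq2 (0.431% of all genes higher, 0.194% lower) also called 0. The median member was 0.18 below the median gene on the log2 scale. After median-ratio scaling of the 0 min libraries the groups overlapped in 67 of 69 members, and Hist1h4f and Hist1h4h had both 4OHT values lower (7.33% of all genes did, and 7.26% had both higher). Hist1h2ac, the gene of largest fall at 8 min, was at 202 and 121 in the DMSO libraries and at 213 and 82.8 in those of 4OHT. The values of each treatment spread widely, with number 2 low.

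Whether the 4OHT effect differed between 8 and 0 min was tested as the difference of the effects. On the deposited scale limma passed 0 of 69 members in either direction (0.387% of all genes higher and 0% lower). The smallest adjusted p was 0.307, with 0 members at an unadjusted p under 0.05. The median gene moved by 1.15 there and the median member by 0.63, so that test does not address a relative fall. After joint scaling limma also passed 0 members (0% of all genes in both directions), and the median member was at −0.60. There 2 were lower at an unadjusted p under 0.05, and the smallest adjusted p was 0.755. DESeq2 called 0 members too (0.179% of all genes higher, 0.62% lower), with 4 lower at an unadjusted p under 0.05, and edgeR 0, with 2 lower. The median member lay 0.52 below the median gene. The fall at 8 min is therefore not shown to differ from 0 min.

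The labelled and unlabelled libraries of each treatment were then compared, since the 0 min level is the background of the purification. How many members exceed it depends on the scale. On the deposited scale with DMSO, 15 of 69 histone genes were higher at 8 min and 0 lower (47% and 1.95% of all genes). With 4OHT, 22 were higher and 0 lower (74% and 0.823% of all genes). The comparisons use separate libraries and different medians, 1.25 and 2.49 for all genes, and the median member lay 1.11 and 1.78 below these. When all 8 libraries were median-ratio scaled, 7 members were higher, 34 lower and 28 not called with DMSO (31.1% and 26.1% of all genes were higher and lower). With 4OHT 5 were higher, 50 lower and 14 not called (30.3% and 27.3%). Relative to other genes, 62 of 69 histone genes were thus not called higher in the labelled DMSO libraries. Other short protein-coding genes had 16 higher and 26 lower of 75 with DMSO, median −0.63, and 9 and 28 with 4OHT, median −0.67.

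With joint scaling, which sets the typical gene of the labelled and unlabelled libraries level, the members called higher at 8 min with DMSO were Hist2h2be (log2 fold change 2.92), Hist1h2bc (2.87), Hist1h1t (2.72), Hist1h1d (1.84), Hist1h2be (1.57), Hist1h2ac (1.42) and Hist4h4 (1.21). Scaling by spike-in reads instead called 13 members higher and 0 lower with DMSO (46.8% and 0% of all genes), near the 15 and 0 of the deposited scale. With 4OHT it called 9 higher and 0 lower (50.5% and 0.0291% of all genes), against 22 and 0 on the deposited scale. The spike-in signal differed widely between libraries of a group. At 0 min it was 3080 and 19419 with DMSO and 2520 and 31054 with 4OHT. Hist1h2bc was at 489 and 309 at 0 min and 2569 and 3179 at 8 min in the jointly scaled DMSO libraries, and at 495 and 316 and then 1257 and 1388 with 4OHT. The 0 min values were alike between treatments and the 8 min values were not. Hist1h2be was at 392 and 248 and then 882 and 968 with DMSO, and at 375 and 248 and then 1021 and 1132 with 4OHT, log2 fold changes of 1.57 and 1.81. Hist1h2ac was at 384 and 229 at 0 min and 744 and 855 at 8 min with DMSO, and at 403 and 156 and then 192 and 235 with 4OHT. On this scale it was above its 0 min level with DMSO (adjusted p = 0.0200) and within its 0 min range with 4OHT (−0.24; adjusted p = 0.648). On the deposited scale the 4OHT values of Hist1h2ac were 175 and 125 at 0 min and 509 and 974 at 8 min, so there the 8 min values were the higher ones (2.25), while the median gene rose by 2.49.

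Hist1h4n was among the strongest genes at 0 min and had the largest drop with labelling in DMSO. In the jointly scaled libraries it was at 1301 and 995 at 0 min and 233 and 229 at 8 min with DMSO. With 4OHT it was at 1245 and 583 and then 132 and 133. No 8 min value reached any 0 min value (log2 fold change −2.30 with DMSO and −2.68 with 4OHT). Class medians of the change with labelling were −0.98 for H1, −1.26 for H2a, −0.77 for H2b, −1.09 for H3 and −1.56 for H4 with DMSO, and −1.14, −2.09, −1.51, −1.86 and −2.09 in the same order with 4OHT. The 7 members with spans over 1 kb had a median of 0.73 relative to the median gene with DMSO on the deposited scale, and the 61 shorter ones −1.15.

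**Figure D4:**
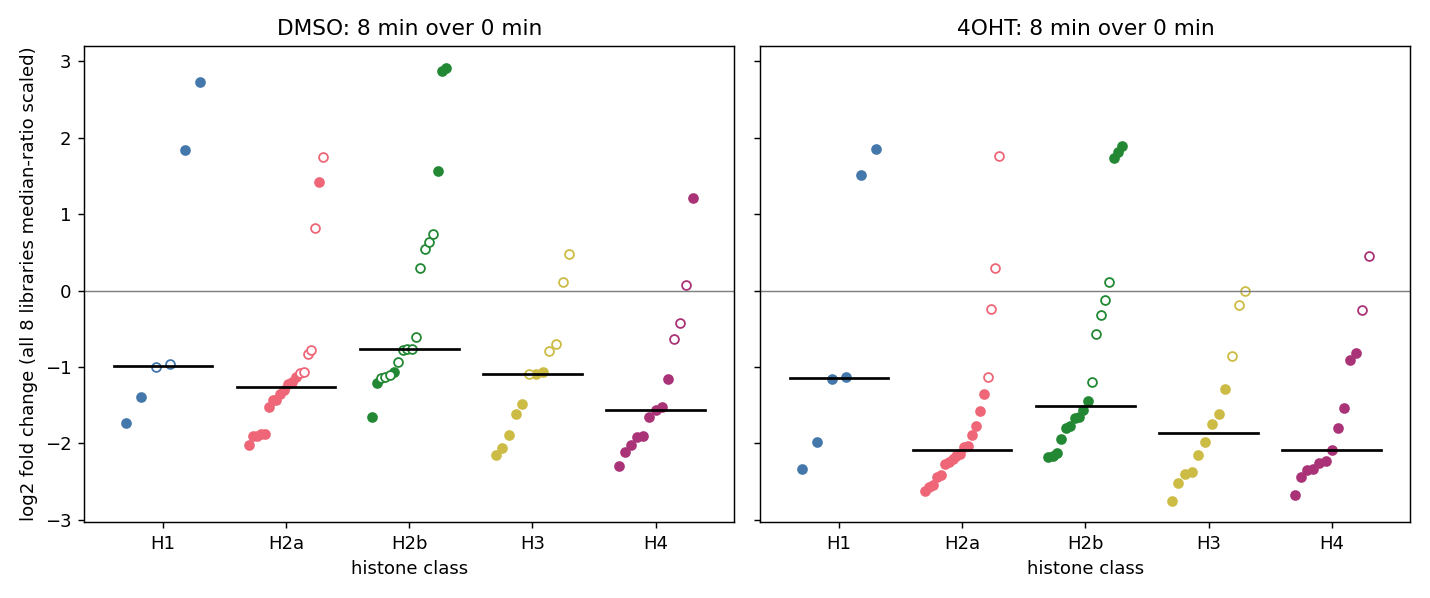
Log2 fold change of each histone gene, 8 over 0 min (y axis, all 8 libraries median-ratio scaled), by class on the x axis, for DMSO (left) and 4OHT (right). Filled points have adjusted p under 0.05, open points do not, and lines are class medians; with DMSO 7 genes are called higher and 34 lower, and with 4OHT 5 and 50.

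Per kb of RefSeq span, among members of at most 1 kb, the order of levels changed with labelling. At 8 min with DMSO the highest mean deposited signals per kb were those of Hist1h1d (4077), Hist1h2ac (1932), Hist4h4 (1866), Hist3h2a (1480) and Hist1h1c (1203). The DMSO libraries differed widely, for instance 3043 and 5111 for Hist1h1d and 1389 and 2476 for Hist1h2ac. Below Hist1h1d these ranges overlap, so that order is not firm. At 0 min Hist1h4n (1341), Hist2h2aa1 (1123) and Hist1h4d (1118) led. Hist3h2a overlaps the RefSeq gene Trim17.

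Genes that act on histone transcription and use were read from chosen lists in the scaled 8 min comparison, where 17.1% of all genes fell and 18.8% rose. Of 14 genes listed as histone promoter factors, 6 (42.9%) fell and 0 rose, with a median of −0.23. That list also holds the cell-cycle genes Ccne1, Ccne2, Cdk2 and Cdkn1a, of which Ccne1, Ccne2 and Cdk2 were among those that fell. Ccne2 and Ccne1, the E-type cyclins, both fell by 0.67, and Nfya, a CCAAT-binding subunit, fell by 0.71. Npat itself was at 760 and 915 with DMSO and 735 and 869 with 4OHT, with overlap (−0.06; adjusted p = 0.723). Of 20 genes of histone RNA 3′ end processing, 4 (20.0%) fell, a share near that of all genes, and 1 rose. Slbp, the stem-loop binding protein, went from 4503 and 4932 to 3699 and 3235 (−0.45; adjusted p = 0.010), Snrpb (−0.37) and Srrt (−0.35) fell, and Lsm11, of the U7 particle, rose (0.47; adjusted p = 0.0311).

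The genes listed as replication-independent histones moved in both directions. Of 11 such genes 4 (36.4%) fell and 2 (18.2%) rose, with a median of −0.10. H2afx, the variant phosphorylated at DNA breaks, went from 768 and 777 to 527 and 544 (−0.53; adjusted p = 0.00045). H2afy, which encodes macroH2A, fell (−0.62), and H2afj rose (0.38). Of 14 histone chaperones 2 (14.3%) fell, Chaf1a (−0.36) and Supt16 (−0.36), a share below that of all genes, and 1 rose, Hira (0.33), which loads replication-independent H3. Of 20 DNA replication genes 13 (65.0%) fell and 0 rose, with a median of −0.38. The licensing factor Cdc6 went from 621 and 610 to 370 and 345 (−0.78; adjusted p = 5.95e-06), and Rrm2 (−0.63), for nucleotide supply, and Cdt1 (−0.52), for licensing, fell as well. In all 3 of these the groups did not overlap.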

How the data were processed

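The authors deposited 1 table of signal values with 38971 entries for 8 libraries in 4 groups of 2, taken from the labels; a column that does not mention 4OHT was read as DMSO. The tools STAR 2.7, Bowtie2 and bcl2fastq and the build mm10 come from the submitters' processing notes, with roles not given in the sources used here. Each deposited signal value was a read count over a divisor particular to the library, whose meaning is not given: 99.997% to 100% of the values came within 0.01 of whole reads. Names were matched to RefSeq (GRCm38.p6) through symbols and synonyms (27998 of 37747 gene rows; 68 members).

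The members, the gene lists and the scaled 8 min fit were chosen with earlier results of these data known. Values were analysed as log2(value + 1), so folds of low genes are understated, for genes that reached 10 in 2 or more of the libraries fitted (all 69 members at 8 min). Fits used limma 3.58.1 in R 4.3.3 (two-sided, Benjamini-Hochberg over all genes, threshold 0.05). The deposited scale, the interaction and the time comparisons used all 8 libraries, and the scaled 8 min and 0 min comparisons their own 4. An estimate of log2 fold change with ± gives its SE. edgeR 4.0.16 (quasi-likelihood) and DESeq2 1.42.0 were run on the recovered reads with their own scaling. On simulated data limma found 99% to 100% of genes changed by 1 or 2 on the log2 scale in the 8 min comparisons. Smaller changes and the wider spread of the fits over all 8 libraries were not simulated. The simulation therefore does not give the power of the tests in these data. Genes named in each class were the 2 of highest mean level and the 2 of most positive and most negative 8 min change, with testis genes, sole calls and up to 3 per list of smallest p; other named genes were chosen after their values were seen.

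Library numbers were not read as pairs. After joint scaling, deviations of same-numbered libraries correlated at 0.019 to 0.417, not above 0.1 for every pair of groups. The highest value was that of the 0 min groups. Joint scaling removes a shift shared by the genes of a library, so this check does not cover the deposited scale. There number 2 had the larger scaling factor in every group.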

Additional observations from a re-analysis of the deposited data

How the results depend on the processing

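Percentages in parentheses are shares of all genes under the same setting. At 8 min in the 4 scaled libraries, 51 to 65 members were called lower under every alternative run except the fit of all 8 scaled libraries, with 0 (0.136%): 57 without a filter (6.95%), 54 of 57 tested with a minimum of 100 (20.4%; 52 of them shared with the 62), 63 with the replicate block (19.7%), 65 with upper-quartile scaling (20%), and 51 to 61 with a library left out (10.6% to 15.8%). The 1 higher call became 0 with no filter, a minimum of 100, upper-quartile scaling and all 8 libraries scaled, and 0 to 1 with a library left out. On the deposited scale the 1 higher call became 32 with the replicate block (82.7%), 0 with median-ratio scaling (0.00969%), spike-in scaling (0.136%), edgeR (0.00969%) or DESeq2 (1.29%), and 0 to 3 with a library left out (0.404% to 70.4%); DESeq2 called 4 lower (2.63%). The difference of effects had 1 higher call with the replicate block (30%). For 8 against 0 min with DMSO, higher calls were 7 with median-ratio scaling (31.1%), edgeR (27.2%) and DESeq2 (31.1%) and 8 to 16 with a library left out (28.1% to 50.8%); lower calls were 6 with the block (5.38%), 34 with median-ratio scaling (26.1%) and edgeR (26.7%), and 44 with DESeq2 (29.2%). With 4OHT, higher calls were 5 with median-ratio scaling (30.3%), edgeR (27.6%) and DESeq2 (30.1%), 9 with spike-in scaling (50.5%) and 15 to 24 with a library left out (60% to 78.5%); lower calls were 50, 52 and 52 with median-ratio scaling, edgeR and DESeq2 (27.3%, 26.9% and 30.5%). The cause of these moves was not tested. The H2a median was −0.92 without pseudogenes and spans over 1 kb, chosen after seeing the data. As log2 ratios of the summed scaled signal at 8 min, H2b was −0.66 and H4 −0.70. That order is the reverse of their class medians (−0.82 and −0.56). Of the settings of single named genes, 295 left the call, 40 lost it, 8 gained it and 0 changed direction. With 2 libraries per group, differences under the spread between them could not be resolved.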
